A study of Mus musculus with 6 samples.

Results

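Clk1, Clk2, Clk3, Clk4, Srpk1, Srpk2, Dyrk1a and Prpf4b encode kinases that phosphorylate splicing proteins, most of them the SR proteins, whose arginine- and serine-rich tails steer the choice of splice sites. These 8 genes were taken by symbol from the 55414 genes of the deposited gene table, and their 86 annotated transcripts from the 142435 transcripts of the transcript table. Of those transcripts, 31 are annotated as protein coding, 34 as retained intron, 12 as targets of nonsense-mediated decay and 9 as processed transcripts without a reading frame. All 8 genes and 63 of the transcripts passed the filter on low counts, and 10 transcripts were at 0 in every library.

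The cells were mouse CD8+ T cells of genotype OT-I, which carry a transgenic receptor for an ovalbumin peptide. They came from spleen and lymph nodes per the sample labels, while the series text names spleens. The N4 group was collected 4 days after N4, the ovalbumin peptide itself, and the T4 group 4 days after T4, an altered form that this receptor binds less potently. Both groups also received anti-OX40 and anti-41BB, antibodies to costimulatory receptors, and the naive group is described only as naive cells. Each group held 2 libraries of polyadenylated RNA. The labels used here give no age or sex of the mice, no sorting gate, and no word on whether replicates came from separate mice, so p-values cover only the variation among libraries, part of which may be technical.

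SR protein kinases work in relay. SRPK1 and SRPK2 phosphorylate SR proteins mainly in the cytoplasm, which lets transportin 3 carry them into the nucleus, and the CLK kinases phosphorylate them further in the nucleus and release them from speckles. DYRK1A, a relative of the CLKs, phosphorylates several splicing factors among many other substrates, and PRPF4B acts on the tri-snRNP during spliceosome assembly. The Clk genes also control themselves through splicing: exon 4 can be included, which gives the active kinase, or skipped, which shifts the reading frame before the kinase domain, and the introns on either side of it can be retained in polyadenylated RNA held in the nucleus.

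The exon on which that choice turns is shown for the 4 Clk genes, since the transcript results below are read by whether it is included, skipped or left beside unspliced introns. Capitals mark exon 4 and lower case the 20 intron bases on each side, 5′ to 3′ on the coding strand, from GENCODE M21 transcript models on GRCm38 (coordinates are those of the capitals; the submitters' notes name mm39 for the counts).
Clk1, chr1:58420121-58420211, minus strand: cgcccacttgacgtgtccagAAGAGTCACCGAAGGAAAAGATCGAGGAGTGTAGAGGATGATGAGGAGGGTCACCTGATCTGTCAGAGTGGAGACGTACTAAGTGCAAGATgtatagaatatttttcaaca
Clk2, chr3:89169618-89169702, plus strand: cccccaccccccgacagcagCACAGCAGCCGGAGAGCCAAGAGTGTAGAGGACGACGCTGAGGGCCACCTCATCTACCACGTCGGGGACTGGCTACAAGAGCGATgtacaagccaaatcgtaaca
Clk3, chr9:57758627-57758723, minus strand: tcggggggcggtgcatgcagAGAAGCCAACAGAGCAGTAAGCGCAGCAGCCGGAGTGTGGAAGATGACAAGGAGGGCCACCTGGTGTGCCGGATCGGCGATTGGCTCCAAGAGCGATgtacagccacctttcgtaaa
Clk4, chr11:51273078-51273168, plus strand: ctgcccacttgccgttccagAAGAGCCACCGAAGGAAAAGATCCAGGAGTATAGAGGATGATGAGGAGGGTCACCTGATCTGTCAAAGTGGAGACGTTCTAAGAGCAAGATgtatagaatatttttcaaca

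Exon 4 was 91 bases long in Clk1 and Clk4, 85 in Clk2 and 97 in Clk3, so skipping it left 1 base over from a multiple of 3 in each gene. All 4 exons were flanked by AG and GT. Clk1 and Clk4 shared 85 of 91 exon bases (93.4%), and the other pairs were 61.5% to 65.3% identical. The annotation shows what skipping does to the reading frame. In Clk1-210 a stop lies 18 bases past the junction of exons 3 and 5 and 809 bases before the last junction, leaving 405 coding bases against 1449 in the full frame. In Clk2-204 the stop lies 9 bases past that junction and 818 before the last one, leaving 408 coding bases against 1494. In Clk3-209, the form of Clk3 that skips the exon, the stop lies farther on, 87 bases past the junction and 94 before the last one. The sequence from 15 bases before the junction to just past the stop is shown for Clk1-210 and Clk2-204, with the stop in capitals. They carry most of the exon-skipping counts of their genes.
Clk1-210: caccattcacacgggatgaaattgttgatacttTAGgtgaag
Clk2-204: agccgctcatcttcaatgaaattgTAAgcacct

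The libraries held 269033066 to 335968843 estimated counts. Levels are given in CPM, counts brought to a common library total after TMM scaling, whose factors were 0.821 and 0.641 in N4, 1.36 and 1.283 in T4, against 1.307 and 0.833 in naive libraries. The choice of scaling matters here: with library totals alone the median over all genes of the log2 fold change in N4 against naive was -0.65 instead of -0.09, in T4 against naive 0.30 instead of 0.00, and in N4 against T4 -1.05 instead of -0.20. Genes of CD8 T cells were present in every library, with a summed level over 8 markers of 2797 to 3317 CPM in N4, 2739 to 2810 in T4, against 4083 to 4818 in naive libraries. Markers of other blood cells differed far more between the groups. Summed over 10 macrophage and monocyte markers the level was 16.8 to 20.5 CPM in N4, 256 to 270 in T4, against 2228 to 2666 in naive libraries, and over 8 neutrophil markers it was 39.7 to 49.2, 6.38 to 14.5 and 2464 to 25366 CPM in the same groups. Over 7 dendritic cell markers it was 54.9 to 62.2 CPM in N4, 385 to 400 in T4, against 1147 to 1508 in naive libraries, and over 4 natural killer cell markers 2.54 to 2.62, 29.2 to 29.9 and 83.1 to 109 CPM. Over 7 B cell markers it was 2.58 to 4.15 CPM in N4, 55.2 to 58.2 in T4, against 25.7 to 65.7 in naive libraries, and over 6 red cell genes 360 to 423, 6509 to 8122 and 3445 to 9228 CPM. Among the defining markers, Adgre1, Siglech, Blnk, Pax5 and Alas2 were at 0 in both N4 libraries.

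Clk1 was the kinase gene with the widest range and the only one to pass the test in any comparison. It had 26.3 and 31.8 CPM in N4 libraries, 41.0 and 43.1 CPM in T4 libraries and 81.5 and 64.2 CPM in naive libraries. The 3 groups stood apart, N4 lowest and naive highest. In N4 against naive, Clk1 fell 2.51-fold (log2 fold change -1.33, SE 0.25, edgeR quasi-likelihood adjusted p = 0.026). In T4 against naive its log2 fold change was -0.79 (SE 0.24, adjusted p = 0.23), and in N4 against T4 -0.53 (SE 0.24, adjusted p = 0.21), so neither passed. With library totals alone Clk1 had 21.6 and 20.4 CPM in N4, 55.7 and 55.3 in T4, against 107 and 53.5 in naive libraries, so that the T4 and naive libraries then overlapped. The marker sums of macrophages, dendritic cells and natural killer cells had the same order of groups as Clk1, and their part in the result was not tested. In bulk RNA, fewer cells of a type and less RNA per cell cannot be told apart.

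The Clk1 call rested on few libraries. It was lost without N4 replicate 1 (log2 fold change -1.20, edgeR adjusted p = 0.13), without N4 replicate 2 (-1.48, adjusted p = 0.1), without T4 replicate 1 (-1.43, adjusted p = 0.069) and without T4 replicate 2 (-1.43, adjusted p = 0.072), all from edgeR. A fit of the N4 and naive libraries alone (-1.43, adjusted p = 0.065) and a test against a minimum fold change of 1.5 (adjusted p = 0.061) also lost it. It was kept without naive replicate 1 (-1.28, adjusted p = 0.023) and without naive replicate 2 (-1.49, adjusted p = 0.012). DESeq2 also called it lower in T4 against naive (-0.85, adjusted p = 0.02).

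**Figure D1:**
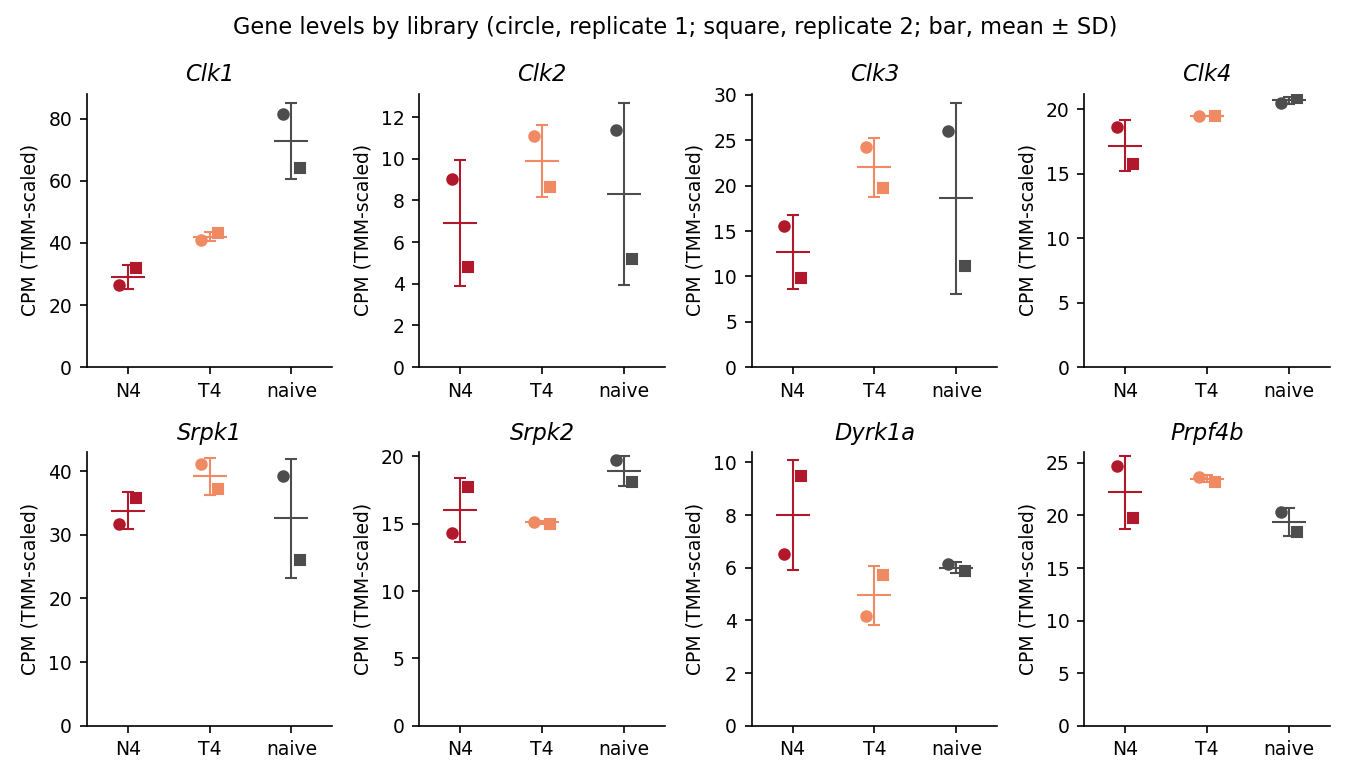
Level of each kinase gene in CPM (TMM-scaled, axis from 0) in N4, T4 and naive cells; circles are replicate 1, squares replicate 2, and bars the mean ± SD of 2 libraries. Clk1 separates the 3 groups, from 26.3 CPM in the lowest N4 library to 81.5 CPM in the highest naive library, while the Clk2 and Clk3 libraries of naive cells (5.21 and 11.4, 11.2 and 26.0 CPM) lie farther apart than the group means.

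Clk2 and Clk3, the other nuclear CLK kinases with broad expression, were marked by the gap between replicates. Clk2 had 9.04 and 4.79 CPM in N4, 11.1 and 8.65 in T4, against 11.4 and 5.21 in naive libraries. Clk3 had 15.6 and 9.79 CPM in N4, 24.3 and 19.7 in T4, against 26.0 and 11.2 in naive libraries. In both genes replicate 2 was the lower one in every group, and both are the most GC-rich of the 8 (54.4% and 54.5%, against 39.8% to 48.1% for the other members). Clk3 differed from naive by -0.55 in N4 (SE 0.46, adjusted p = 0.46) and from T4 by -0.79 (SE 0.46, adjusted p = 0.31), without overlap of the N4 and T4 libraries. After a correction for GC content those differences were 0.11 and 0.03. Clk3 exons overlap those of Edc3 on the opposite strand, and the kit does not mark strand, so part of its counts may belong to Edc3.

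Clk4, the close paralog of Clk1, varied little. Its libraries had 18.6 and 15.8 CPM in N4, both 19.5 in T4, and 20.5 and 20.9 in naive cells. The log2 fold change was -0.27 in N4 against naive (SE 0.22, adjusted p = 0.46) and -0.18 in N4 against T4 (SE 0.22, adjusted p = 0.65). Reads from stretches that Clk1 and Clk4 share could be placed in either gene, and Clk4 also overlaps the small RNA gene Gm25082.

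The SRPK kinases of the cytoplasm did not pass in any comparison. Srpk1 had 31.7 and 35.8 CPM in N4, 41.2 and 37.2 in T4, against 39.3 and 26.0 in naive libraries, with a log2 fold change of 0.05 in N4 against naive (SE 0.28, adjusted p = 0.93). Srpk2 had 14.3 and 17.7 CPM in N4, 15.1 and 15.0 in T4, against 19.7 and 18.1 in naive libraries. Its stimulated libraries all lay under the naive ones, by -0.24 in N4 (SE 0.24, adjusted p = 0.53) and -0.33 in T4 (SE 0.24, adjusted p = 0.6). Srpk2 exons overlap those of Kmt2e on the opposite strand.

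Dyrk1a had 6.51 and 9.47 CPM in N4, 4.15 and 5.74 in T4, against 6.15 and 5.86 in naive libraries, so that N4 lay above and T4 below naive. Its log2 fold change was 0.69 in N4 against T4 (SE 0.33, adjusted p = 0.22), and -0.19 with library totals alone. Prpf4b had 24.7 and 19.8 CPM in N4, 23.7 and 23.2 in T4, against 20.3 and 18.4 in naive libraries. T4 exceeded naive without overlap by 0.28 (SE 0.23, adjusted p = 0.67). Prpf4b overlaps the long noncoding RNA gene Gm36839 on the opposite strand.

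Counted over the 8 genes, 1 fell and none rose in N4 against naive, where 12.1% of the 23003 genes tested were called and 7.18% were called lower. None was called in T4 against naive (0.117% of all genes called) or in N4 against T4 (7.96%). With single libraries left out, these shares of all genes ran from 2.45% to 17.40%, 0.00% to 1.39% and 0.00% to 17.64%, lowest in N4 against naive without N4 replicate 2 and highest without naive replicate 2. At an unadjusted p under 0.05 the counts were 1, 1 and 0 of the 8, each time Clk1, beside 30.8%, 14.5% and 29.2% of all genes. DESeq2 called 1, 1 and 0 of the 8, beside 29.44%, 9.42% and 27.25% of all genes. The libraries of the groups did not overlap for 4 of the 8 in N4 against naive (1 higher and 3 lower), where this held for 55.4% of all genes. They did not overlap for 5 of the 8 in T4 against naive (1 higher, 4 lower; 48.8% of all genes) and for 5 in N4 against T4 (1 higher, 4 lower; 65.2% of all genes). The members' median log2 fold changes were -0.25, 0.08 and -0.20 in these comparisons, beside -0.09, 0.00 and -0.20 over all genes.

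**Figure D2:**
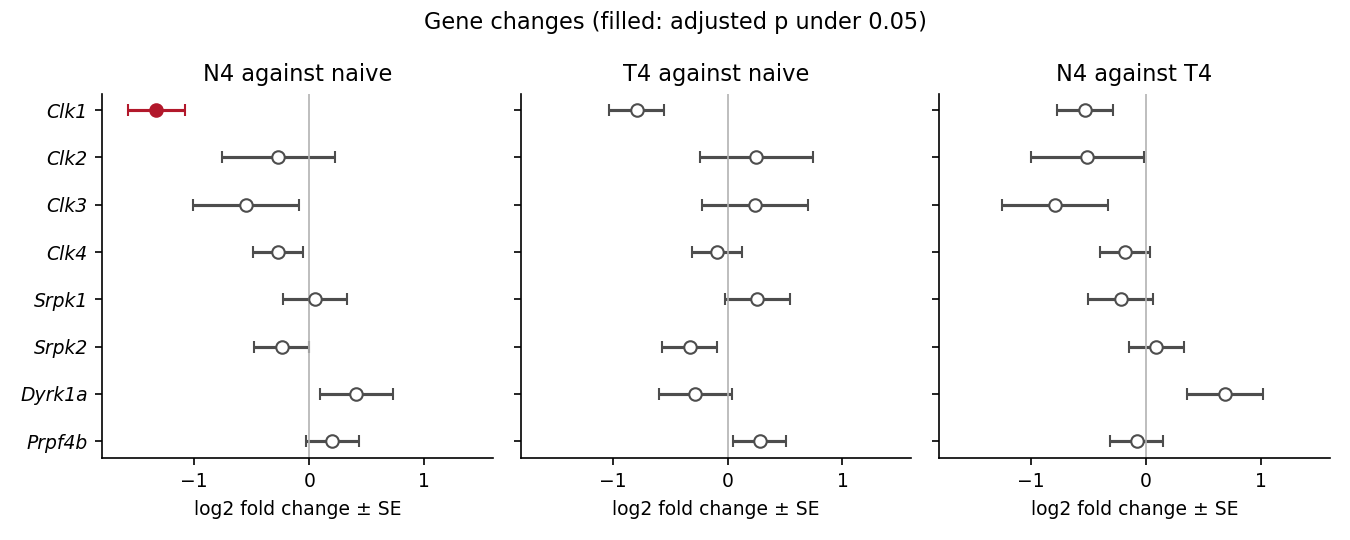
Log2 fold change of each kinase gene with its standard error in N4 against naive, T4 against naive and N4 against T4, 2 libraries per group; filled points passed an adjusted p of 0.05. Clk1 in N4 against naive, at -1.33, is the only filled point.

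Per transcript length, as TPM by library total, Clk1 was the highest of the 8 in every group, with 8.71 ± 1.85 in N4, 27.9 ± 0.793 in T4, against 38.3 ± 22.6 in naive cells (SD, n = 2). Clk4 came next in N4 with 7.68 ± 2.46 TPM, then Srpk1 with 6.4 ± 0.946 TPM, and neighbours in this order overlapped between libraries. In T4 cells Clk4, Srpk1 and Clk3 followed Clk1 with overlapping libraries, at 14.8 ± 0.525, 14.1 ± 0.675 and 13.9 ± 2.61 TPM. Dyrk1a was lowest in each group, at 0.934 ± 0.0651 TPM in N4, 1.31 ± 0.263 in T4, against 1.12 ± 0.543 in naive cells. Among 5202 protein-coding genes whose mean log2 CPM reached 3, those whose levels over the 6 libraries lay nearest to those of Clk1 were Arl4c, Klf6 and Slc25a36. Their root mean square differences of log2 CPM, after each gene was centred, were 0.05, 0.08 and 0.10. Klf6, which encodes a zinc finger transcription factor, had 37.5 and 39.4 CPM in N4, 56.8 and 53.0 in T4, against 114 and 85.8 in naive libraries. The nearest genes to Srpk1 were Mia3 at 0.04, and Tbce and Ilf2 at 0.07 each. Among the members, Clk2 and Clk3 were nearest to each other, at 0.14.

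Clk1 transcripts with and without exon 4 were both lower in N4 libraries. Clk1-201, the full-length coding form with exon 4, had 12.2 and 6.7 CPM in N4, 14.9 in both T4 and 22.9 and 35.6 in naive libraries. Clk1-210, the decay form without exon 4, had 5.23 and 11.5 CPM in N4, 17.9 and 16.8 in T4, against 37.8 and 15.0 in naive libraries. The retained-intron form Clk1-204, in which introns 3 and 4 stay in place and the transcript ends early, had 3.22 and 3.26 CPM in N4, 4.63 and 5.19 in T4, against 11.1 and 5.34 in naive libraries. All 3 lay lower in both N4 libraries than in any naive library. Their log2 fold changes in N4 against naive were -1.74 for Clk1-201 (adjusted p = 0.14), -1.81 for Clk1-210 (adjusted p = 0.21) and -1.47 for Clk1-204 (adjusted p = 0.21). Clk1-212, a longer form that retains the same introns, did not follow: it had 0.824 and 9.29 CPM in N4, 1.27 and 1.24 in T4, against 2.6 and 2.39 in naive libraries, so 1 N4 library alone was high. Clk1-211, another decay form without exon 4, had 3.12 and 0 CPM in N4, 0.651 and 3.44 in T4, against 2.46 and 3.75 in naive libraries. The retained-intron form Clk1-202 had 0.928 and 0.708 CPM in N4, 0.77 and 0.733 in T4, against 2.91 and 1.25 in naive libraries, lowest in the stimulated cells.

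**Figure D3:**
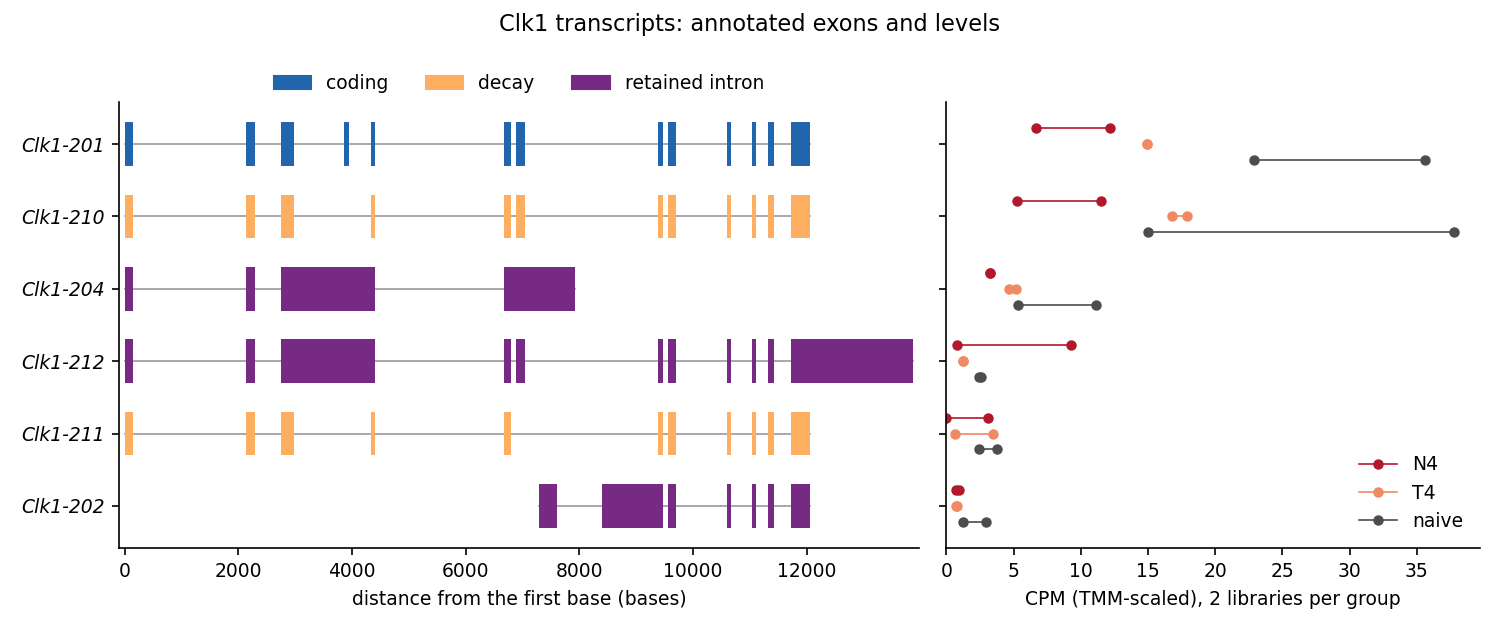
Left, annotated exons of the 6 Clk1 transcripts named by level, as boxes on a line over distance in bases from the first base of the gene; colour gives the annotated type. Right, the CPM of each transcript in the 2 libraries of N4, T4 and naive cells, where Clk1-201 and Clk1-210 reach 35.6 and 37.8 CPM in naive cells and at most 12.2 and 11.5 CPM in N4 cells.

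No transcript of the 8 kinase genes passed the edgeR test in any comparison, where 0% of the 55122 transcripts tested were called. At an unadjusted edgeR p under 0.05 there were 6, 5 and 4 of the 63 kinase transcripts tested in N4 against naive, T4 against naive and N4 against T4. Among all 55122 transcripts tested there were 10172, 5238 and 9976. DESeq2 called 6, 4 and 6 kinase transcripts, beside 9947, 3578 and 8991 among all, or 18.77%, 6.75% and 17.32% of the transcripts it tested. Clk1-201 was among the kinase transcripts called, lower in N4 against naive (log2 fold change -1.69, DESeq2 adjusted p = 0.022). The test of transcript use, which asks whether the transcripts of a gene change relative to each other, called none of the 8 genes, beside 1.19%, 0.375% and 1.4% of 10393 genes in the 3 comparisons. Its smallest adjusted p was 0.2 for Clk2 in N4 against naive. Transcript values varied widely between replicates, so the shares are given per library.

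Exon 4 of Clk1 was included in a share of the classed counts that varied more within N4 and within naive cells than between the group means. The share was 49.5% and 21.7% in N4, 37.7% and 35.7% in T4, against 29.7% and 57.2% in naive libraries. The skipped form took 33.9% and 37.4% in N4, 47.2% and 48.7% in T4, against 52.2% and 30.3% in naive libraries, so N4 lay below T4, by 12.3 points against a combined SD of 2.7, while naive libraries spanned both. Forms that retain an intron beside exon 4 took 16.6% and 40.9% in N4, 15.1% and 15.7% in T4, against 18.1% and 12.5% in naive libraries. The classed transcripts held 93.7% to 97.0% of Clk1 counts. Exact binomial 95% intervals were at most 2.6 points wide for Clk1 and 5.5 for Clk2. They treat each estimated count as an independent read, so they may be too narrow, and they do not cover the assignment of reads to transcripts.

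The Clk2 decay form Clk2-204, which skips exon 4, was listed at 0 in both N4 libraries, with 3.8 and 0.878 CPM in T4, against 2.77 and 1.58 CPM in naive libraries. It made up 34.6% and 10.5% of classed Clk2 counts in T4, against 24.9% and 31.8% in naive libraries. If reads were assigned without error, a floor of 3 counts per library put its mean N4 level at least 154-fold below naive cells. On the same condition it was at least 166-fold below T4 cells, a bound that fell to 62.2-fold without T4 replicate 1. The 1997 and 980 Clk2 counts of the N4 libraries would allow shares of up to 0.15% and 0.306%, if each estimated count were a separate read and reads were assigned without error. Exon 4 was included in 63.0% and 86.2% of classed counts in N4, 43.3% and 49.1% in T4, against 56.3% and 60.8% in naive libraries. The forms with exon 4 overlapped in level between the groups, with 4.64 ± 1.14 CPM in N4, 4.43 ± 0.455 in T4, against 4.65 ± 2.31 in naive cells (SD, n = 2). Among them Clk2-203 had 3.31 and 2.26 CPM in N4, 2.7 and 1.76 in T4, against 2.34 and 3.02 in naive libraries. Clk2-202 had 0.974 and 1.57 CPM in N4, 0.629 and 0.514 in T4, against 2.17 and 0 in naive libraries. Clk2-201 was listed at 0 in N4 replicate 2 and naive replicate 2, with 1.16 CPM in the other N4 library, 1.42 and 1.83 in T4, against 1.76 in the other naive library. With single libraries left out, the difference in inclusion between N4 and T4 ranged from 16.8 points (without N4 replicate 2) to 40.0 points (without N4 replicate 1). The retained-intron form Clk2-207 had 3.19 and 0.611 CPM in N4, 2.41 and 3.37 in T4, against 2.1 and 0.368 in naive libraries, so T4 lay above naive. Clk2-204 passed DESeq2 in N4 against naive (adjusted p = 5.5e-08) and against T4 (adjusted p = 7.5e-08), but not the edgeR test (adjusted p = 0.087 and 0.11).

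Clk3-201 is the main coding form of Clk3, with 10.9 and 6.6 CPM in N4, 18.8 and 15.5 in T4, against 20.8 and 8.4 in naive libraries. Exon 4 was included in 73.7% and 73.0% of its classed counts in N4, 84.8% and 90.1% in T4, against 81.6% and 79.2% in naive libraries. Forms with an intron retained beside the exon took 19.0% and 22.1% in N4, 9.4% and 5.8% in T4, against 10.2% and 10.4% in naive libraries. N4 libraries thus held the highest retained share, by 10.2 points over naive (combined SD 2.1) and 13.0 points over T4 (combined SD 3.3). In level, the retained forms had 2.4 ± 0.579 CPM in N4, 1.54 ± 0.757 in T4, against 1.85 ± 1.05 in naive cells, which overlap, while the forms with exon 4 had 8.74 ± 3.03, 17.2 ± 2.33 and 14.6 ± 8.75 CPM. Divided by transcript length, the retained share was 12.2% ± 1.8 in N4, 4.3% ± 1.3 in T4, against 5.6% in naive cells, but inclusion was 69.2% ± 2.4 in N4, 80.8% ± 4.7 in T4, against 68.6% ± 3.6 in naive cells, so that inclusion in N4 and naive cells differed by less than its spread. Of the retained forms, Clk3-207 had 1.99 and 1.64 CPM in N4, 0.572 and 0.258 in T4, against 1.9 and 1.1 in naive libraries, with T4 below both other groups. Clk3-203 had 0.824 and 0.357 CPM in N4, 1.5 and 0.746 in T4, against 0.697 and 0 in naive libraries. The decay form Clk3-209, without exon 4, had 1.07 and 0.444 CPM in N4, 1.29 and 0.708 in T4, against 2.08 and 1.1 in naive libraries.

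Clk4 differed between groups mainly in the skipped class. Exon 4 was skipped in 18.6% and 30.4% of its classed counts in N4, 13.4% and 17.8% in T4, against 11.2% and 8.3% in naive libraries, a complete order of the groups with differences of 14.7 points in N4 against naive (combined SD 8.6) and 5.9 points in T4 against naive (combined SD 3.7). Inclusion was 67.7% and 51.0% in N4, 70.6% and 66.5% in T4, against 72.0% and 72.2% in naive libraries. Clk4-203, annotated as protein coding although it lacks exon 4, carried most of the skipped counts and had 1.45 and 2.79 CPM in N4, 1.38 and 2.49 in T4, against 1.16 and 0.817 in naive libraries. The decay form Clk4-212, which also lacks the exon, had 1.42 CPM in N4 replicate 1, 0.555 in T4 replicate 2 and at most 0.00248 in the other libraries. Clk4-204, a decay form of similar length without the exon (742 against 752 bases), had 0 and 0.908 CPM in N4 and 0.991 and 0 in T4. In naive libraries it had 0.799 and 0.645 CPM. Clk4-204 was thus at 0 in the libraries where Clk4-212 was highest, and whether reads were exchanged between these forms was not tested. The full-length coding form Clk4-201 had 10.5 and 6.22 CPM in N4, 12.5 and 11.4 in T4, against 12.6 and 12.7 in naive libraries, so that the 3 groups did not overlap. Among retained-intron forms Clk4-213, which keeps introns beside exon 4, had 2.13 and 2.27 CPM in N4, 2.84 and 2.69 in T4, against 2.96 and 3.43 in naive libraries, in the same order. The short form Clk4-207 had 1.55 and 1.11 CPM in N4, 0.404 and 0.697 in T4, against 0.642 and 0.825 in naive libraries. Clk4-206 had 1.18 and 0.957 CPM in N4, 0.666 and 0.901 in T4, against 1.2 and 2.27 in naive libraries. For Clk4 the classed transcripts held only 77.2% to 90.9% of the counts.

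**Figure D4:**
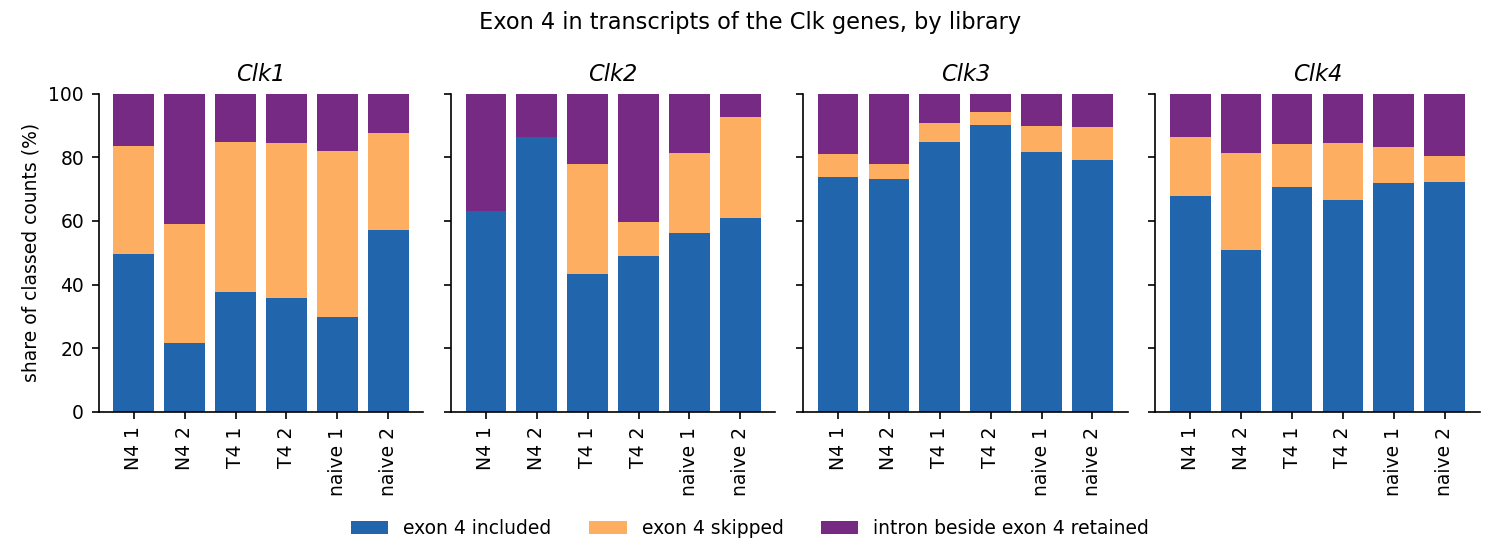
Share of classed transcript counts (%, stacked to 100) with exon 4 included, skipped or beside a retained intron, for the Clk genes in each of the 6 libraries. The skipped part of Clk2 is at 0 in both N4 libraries, the retained part of Clk3 is largest in the N4 libraries (19.0% and 22.1%), and Clk1 varies within N4 and within naive cells.

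By annotated type, retained-intron transcripts took a large part of the Clk counts in all groups. For Clk1 their share was 19.5% and 42.0% in N4, 16.7% and 17.1% in T4, against 21.0% and 14.3% in naive libraries. For Clk3 it was 21.1% and 23.3% in N4, 11.5% and 9.5% in T4, against 10.1% and 10.9% in naive libraries, 11.7 points higher in N4 than in either other group (combined SD 1.6 against naive and 2.1 against T4). For Clk4 it was 26.5% and 27.8% in N4, 20.3% and 23.2% in T4, against 23.8% and 31.4% in naive libraries. For Clk2 it ranged from 11.8% to 42.3%, and the N4 libraries alone had 39.8% and 19.9%. Over all protein-coding genes these transcripts took 3.18% and 3.26% of counts in N4, 4.36% and 4.26% in T4, against 4.32% and 3.63% in naive libraries. Of 3333 genes with such transcripts, 56.6% had a lower share in N4 than in naive cells and 62.2% a lower one than in T4 cells. The Clk3 share was higher in both comparisons. In N4 against naive the mean share was also higher for Clk1 (13.1 points, combined SD 16.6), Clk2 (13.8, combined SD 15.3) and Srpk1 (16.5, combined SD 18.1). It was lower for Clk4, Srpk2, Dyrk1a and Prpf4b. The Srpk1 share was 45.7% and 37.3% in N4, against 37.1% and 12.9% in naive libraries. The retained-intron shares of the groups did not overlap for 4 of the 8 kinase genes in each comparison, beside 46.9% of genes in N4 against naive, 40.9% in T4 against naive and 52.3% in N4 against T4. The smallest p of an exact permutation test is 0.33 with 2 libraries a group, so none is given for the shares.

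For the kinases outside the CLK family, transcript levels differed widely within groups. The retained-intron form Srpk1-212 (4804 bases) had 9.46 and 3.95 CPM in N4, 29.6 and 0.0491 in T4, against 12.5 and 0 in naive libraries, and the coding form Srpk1-204 (4653 bases) had 11.9 and 16.5 CPM in N4, 3.64 and 28.3 in T4, against 20.1 and 20.0 in naive libraries. In T4 alone the higher of these forms changed between the libraries, where the Srpk1 gene level was 41.2 and 37.2 CPM. The retained-intron form Srpk1-203 had 4.72 and 9.29 CPM in N4, 3.69 and 3.4 in T4, against 1.75 and 3.23 in naive libraries. The short coding form Srpk1-202 had 4.48 and 5.98 CPM in N4, 2.73 and 2.6 in T4, against 2.99 and 2.55 in naive libraries. Both were highest in N4 (edgeR adjusted p = 0.27 and 0.35 in N4 against naive). Srpk2 counts lay in retained-intron forms for 33.2% and 42.7% in N4, 34.9% and 37.8% in T4, against 32.2% and 55.5% in naive libraries. Its retained-intron form Srpk2-203 had 4.28 and 6.86 CPM in N4, 4 and 4.34 in T4, against 5.47 and 9.04 in naive libraries, and its coding form Srpk2-201 had 8.9 and 9.27 CPM in N4, 9.13 and 9.15 in T4, against 12.6 and 7.47 in naive libraries. Dyrk1a-201 had a count only in N4 replicate 2, at 2.91 CPM, and Dyrk1a-202 had 5.99 and 5.47 CPM in N4, 3.59 and 4.58 in T4, against 5.45 and 5.22 in naive libraries. The retained-intron form Dyrk1a-204 had 0.494 and 1.01 CPM in N4, 0.54 and 1.13 in T4, against 0.685 and 0.641 in naive libraries.

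The retained-intron share of Prpf4b was 3.9% and 21.0% in N4 and 10.2% and 6.5% in T4, against 22.7% and 26.4% in naive libraries. It differed by -16.2 points in T4 against naive (combined SD 3.8) and by -12.1 points in N4 against naive (combined SD 12.4), and the N4 difference was -3.5 points without N4 replicate 1. Its retained-intron form Prpf4b-206 had 0.969 and 4.15 CPM in N4, 2.42 and 1.5 in T4, against 4.6 and 4.86 in naive libraries. Its coding form Prpf4b-201 had 21.8 and 15.2 CPM in N4, 15.3 and 20.7 in T4, against 15.5 and 13.2 in naive libraries, so the groups overlapped. The decay form Prpf4b-208 was found in T4, at 5.57 and 0.739 CPM, and in 1 N4 library, at 1.76 CPM, and was at 0 in the others. The test of transcript use gave Prpf4b an adjusted p of 0.34 in T4 against naive.

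**Figure D5:**
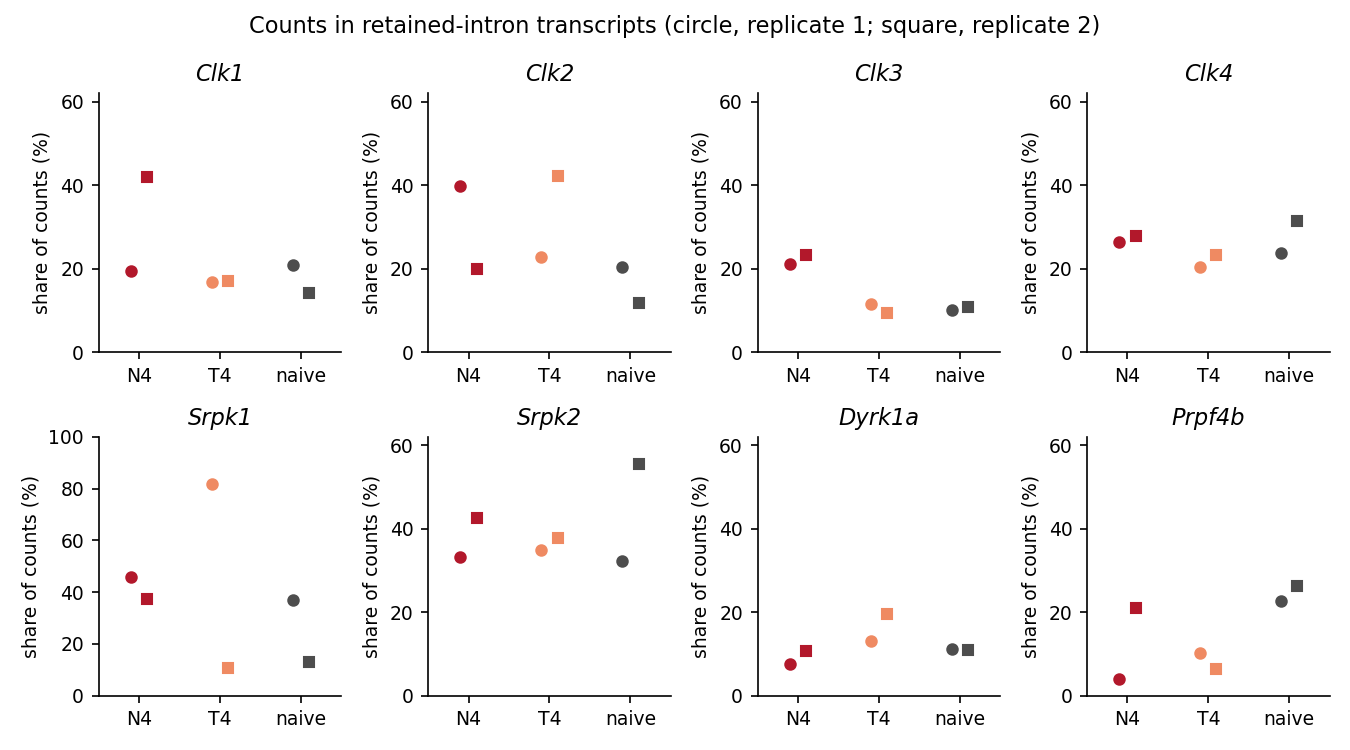
Share of each kinase gene's counts (%) in transcripts annotated as retained intron, in N4, T4 and naive cells; circles are replicate 1 and squares replicate 2, and the Srpk1 panel runs to 100%. Clk3 stands apart in N4 (21.1% and 23.3%), and Srpk1 spans 10.7% to 81.7% between the T4 libraries.

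Substrates and partners of these kinases were read from the same fit. Of 15 SR proteins and other proteins with arginine and serine repeats, 2 rose and none fell in N4 against naive, where 12.1% of all genes were called, with a median log2 fold change of 0.60 beside -0.09 over all genes. Srsf3, an SR protein of splicing and RNA export, had 1611 and 2098 CPM in N4, 526 and 561 in T4, against 461 and 650 in naive libraries (log2 fold change in N4 against naive 1.74, SE 0.30, adjusted p = 0.022; N4 against T4 1.77, SE 0.30, adjusted p = 0.031). Srsf2, which binds exonic splicing enhancers, had 516 and 387 CPM in N4, 264 and 234 in T4, against 168 and 147 in naive libraries (log2 fold change of N4 over naive 1.52, SE 0.26, adjusted p = 0.023). In N4 against T4 1 of the 15 rose, where 7.96% of all genes were called, and in T4 against naive none passed. The summed level of the list was 4079 to 4651 CPM in N4, 2040 to 2076 in T4, against 1829 to 2021 in naive libraries. Srsf3 was its largest term in every library, and not all members were higher in N4. Srsf5 had 176 and 160 CPM in N4 against 290 and 185 in naive libraries, and Srrm2 58.9 and 25.9 against 93.3 and 45.4. The summed level of the 8 kinases was 145 to 147 CPM in N4, 172 to 180 in T4 and 170 to 225 in naive libraries.

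Of 9 genes for phosphatases and import of SR proteins, 2 rose and none fell in N4 against naive and in N4 against T4 (12.1% and 7.96% of all genes called), and none passed in T4 against naive. Ppp1cb, a catalytic subunit of protein phosphatase 1, had 149 and 197 CPM in N4, 41.8 and 38.7 in T4, against 70.0 and 69.6 in naive libraries (N4 against naive 1.31, SE 0.24, adjusted p = 0.026; N4 against T4 2.11, SE 0.25, adjusted p = 0.021). Ppp2cb, a catalytic subunit of protein phosphatase 2A, had 56.6 and 49.9 CPM in N4, 17.1 and 16.9 in T4, against 13.6 and 16.5 in naive libraries (N4 against naive 1.82, SE 0.24, adjusted p = 0.012; N4 against T4 1.65, SE 0.24, adjusted p = 0.025). Tnpo3, the importer of phosphorylated SR proteins, had 9.4 and 8.69 CPM in N4, 9.14 and 8.78 in T4, against 5.62 and 5.1 in naive libraries and passed in no comparison.

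Of 13 further kinases of the DYRK, HIPK, SRPK and transcriptional CDK families, 2 fell and none rose in N4 against naive and in N4 against T4 (12.1% and 7.96% of all genes called). Both are DYRKs of low level. Dyrk3, a kinase that dissolves nuclear speckles and stress granules, had 0.435 and 0.298 CPM in N4, 3.63 and 2.34 in T4, against 1.41 and 2.34 in naive libraries (N4 against naive -2.35, SE 0.51, adjusted p = 0.038; N4 against T4 -3.03, SE 0.52, adjusted p = 0.032). Dyrk4 was at 0 in both N4 libraries, with 0.166 and 0.0568 CPM in T4, against 2.39 and 0.985 CPM in naive libraries, at least 119-fold lower in N4 than in naive cells against a floor of 3 counts per library and at least 69.8-fold without naive replicate 1. Marker sums of red cells and B cells, like Dyrk3, were lowest in N4. Those of macrophages, dendritic cells and natural killer cells had the same order of groups as Dyrk4. The part of such cells in the Dyrk3 and Dyrk4 calls was not tested. The N4 against naive calls of Dyrk3, Srsf3, Srsf2, Ppp2cb and Ppp1cb were each lost without either N4 library (edgeR adjusted p between 0.052 and 0.15). All of them but Ppp2cb were also lost without either T4 library (adjusted p between 0.078 and 0.11), Ppp2cb without T4 replicate 2 (adjusted p = 0.051), Dyrk3 without naive replicate 2 (adjusted p = 0.056), and Dyrk4 without N4 replicate 2 (adjusted p = 0.054). With only the N4 and naive libraries, Dyrk3, Srsf3, Srsf2, Ppp2cb and Ppp1cb did not pass (adjusted p between 0.052 and 0.092). The calls of Dyrk3, Dyrk4, Srsf3 and Ppp2cb in N4 against T4 were lost without any one of the N4 or T4 libraries (adjusted p between 0.073 and 0.29), and that of Ppp1cb without N4 replicate 2, T4 replicate 1 or T4 replicate 2 (adjusted p = 0.085, 0.15 and 0.16). With library totals alone the log2 fold changes in N4 against naive were 0.97 for Srsf2, 1.32 for Ppp2cb and 0.74 for Ppp1cb, and none of these 3 passed. In N4 against T4 they were then 1.22 for Ppp1cb (adjusted p = 0.054), 0.80 for Ppp2cb (adjusted p = 0.14) and 0.89 for Srsf3, which still passed, and Dyrk4 had an adjusted p of 0.054.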

How the data were processed

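The authors deposited estimated counts per gene and per transcript, as whole numbers without normalization. The submitters' processing notes name StringTie 2.1.0, STAR 2.7.1a, DESeq2 1.30.1, R 4.0.5, SAMtools 1.9 and the build mm39, without saying which step each served. For the annotation release and strand setting the sources used here give nothing. Totals of 269033066 to 335968843 estimated counts are therefore not read as sequenced fragments. Per the labels' protocols, the RNA kit was miRNeasy Micro and the library kit SMARTer ultra-low poly(A).

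Symbols, transcript types and exons came from GENCODE M21 on GRCm38, which matched 94.0% of gene identifiers and 97.1% of transcripts. Transcript counts of each kinase gene summed to its gene count. Genes and transcripts were tested with edgeR 4.0.16 in R 4.3.3 (TMM, filterByExpr, quasi-likelihood test on all 6 libraries, Benjamini-Hochberg adjustment over all 23003 genes or 55122 transcripts, threshold 0.05). Transcript use was tested with diffSpliceDGE and Simes p-values. DESeq2 1.42.0, other scalings, no filter, a GC correction, a minimum fold change of 1.5, fits of 2 groups and leaving out each library were alternatives. The procedures were tested on simulated data, where the transcript-use test made more false calls than its threshold allows. The common biological coefficient of variation was 0.67. Replicates differed far beyond the sampling noise of the estimated counts taken as independent reads (chi-square per degree of freedom 118.4 or more), so none was merged.

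The text names all 8 kinases, their transcripts with at least 10% of the gene's counts in a group, retained-intron and decay transcripts of the Clk genes above 1 CPM, at most 4 called members of each other list, and 3 genes of nearest level to Clk1 and to Srpk1. Tnpo3 and the exon 4 classes were chosen after their values were seen. The members and lists were chosen with earlier results of these data known.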

Additional observations from a re-analysis of the deposited data

Results flagged for a closer look

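In 4 quantities both N4 libraries lay on one side of both naive libraries and both T4 libraries on the other. Dyrk1a had 6.51 and 9.47 CPM in N4 and 4.15 and 5.74 CPM in T4, around 6.15 and 5.86 CPM in naive cells. The difference of N4 against T4 was tested and did not pass (log2 fold change 0.69, edgeR adjusted p = 0.22), and it was -0.19 when libraries were scaled by their totals alone. The other 3 are shares of classed transcript counts, whose differences were not tested. Inclusion of exon 4 in Clk2 was 28.4 points higher in N4 than in T4 (combined SD 16.9) and 16.8 points without N4 replicate 2, with naive libraries between. Inclusion in Clk3 differed by -14.1 points in N4 against T4 (combined SD 3.7), and the share of Clk3 forms with an intron retained beside exon 4 by 13.0 points (combined SD 3.3), again with naive libraries between.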

How the results depend on the processing

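Of the alternatives run, 92 of 112 left the kinase genes' log2 fold changes in N4 against naive on the same side of 0 and of the threshold, 106 of 112 did in T4 against naive and 104 of 112 in N4 against T4. The Clk1 call in N4 against naive kept its direction throughout (-1.93 to -1.20), but the count of called kinase genes went to 0 with a minimum fold change of 1.5 and with only the 2 groups compared, and ranged from 0 to 1 when each library was left out. DESeq2 gave a count of 1 in T4 against naive. DESeq2 called 6, 4 and 6 kinase transcripts where edgeR called 0, in N4 against naive, T4 against naive and N4 against T4. Over all transcripts DESeq2 called 18.77%, 6.75% and 17.32%. Without N4 replicate 1 the outcome of the transcript-use test changed for Dyrk1a in N4 against naive and in N4 against T4. That setting leaves N4 replicate 2 alone, the only library with counts of Dyrk1a-201 (2.91 CPM, 30.7% of Dyrk1a counts). Over all genes DESeq2 called 29.44%, 9.42% and 27.25% in the 3 comparisons.

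Values that changed sign belonged to genes that were not called. In N4 against naive Clk2 turned to 0.38 with the GC correction, 0.12 without N4 replicate 2 and 0.29 without naive replicate 1, and Clk3 to 0.11 with the GC correction and 0.06 without naive replicate 1. Srpk1 turned to -0.58 with library size scaling, -0.10 with no filter, -0.05 with only the 2 groups compared and -0.22 to -0.05 with libraries left out (N4 replicate 2, T4 replicate 1 or 2, naive replicate 2), and Dyrk1a to -0.18 and Prpf4b to -0.35 with library size scaling. In T4 against naive Clk2, Clk3 and Srpk1 turned to -0.21, -0.25 and -0.01 without naive replicate 2, and Clk4 and Dyrk1a to 0.22 and 0.01 with library size scaling. In N4 against T4 Clk2, Clk3 and Srpk1 turned to 0.29, 0.03 and 0.14 with the GC correction, Srpk2 to -0.78 with library size scaling, -0.05 with no filter and -0.07 without N4 replicate 2, Dyrk1a to -0.19 with library size scaling, and Prpf4b to 0.07 without N4 replicate 2. Over all libraries left out singly, the values ran in N4 against naive from -0.80 to 0.29 for Clk2, -1.04 to 0.06 for Clk3 and -0.22 to 0.24 for Srpk1, in T4 against naive from -0.21 to 0.83 for Clk2, -0.25 to 0.89 for Clk3 and -0.01 to 0.50 for Srpk1, and in N4 against T4 from -0.07 to 0.23 for Srpk2. The cause was not tested. Under library size scaling the medians of the 8 were -0.81, 0.32 and -1.05, and with the GC correction 0.17, 0.02 and 0.08.

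For retained-intron shares, counting decay and processed transcripts too gave differences of 6.4 points for Clk1 in T4 against naive, -13.5 and -25.0 for Clk2 in N4 against naive and against T4, 8.4 and -4.5 for Clk3 in N4 and T4 against naive, and 8.2 for Clk4 in N4 against T4. Per transcript length the Clk3 difference was 8.1 points in N4 against naive and 7.7 in N4 against T4, and that of Clk4 -11.9 in T4 against naive and 9.7 in N4 against T4. Leaving out single libraries, the Clk3 difference ranged from 10.6 to 12.8 points in N4 against naive and against T4, and that of Clk1 from 1.8 to 24.4 and from 2.5 to 25.1. Of 180 alternative values of the exon 4 shares, chosen after seeing the data, 8 moved by more than 1 combined SD, each of them per transcript length.

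Replicates with the same number did not deviate together over all genes (correlations of 0.017 to 0.08). With 2 libraries a group this cannot decide whether the libraries were paired, and the labels do not say. A replicate block left Clk1 at -1.33 in N4 against naive (edgeR adjusted p = 0.024) and the counts of called kinase genes at 1, 0 and 0. With that block 15.74%, 0.57% and 14.64% of all genes were called. The fewest counts of a kinase gene in a library were 980 for Clk2 and 1438 for Dyrk1a.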
